A study of Rattus norvegicus with 12 samples.

Results

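The genes described here are 9 members of the interleukin-6 family and TWEAK signalling pathways, taken by gene symbol: the ligands Tnfsf12 (TWEAK) and Il6, the receptors Tnfrsf12a (Fn14), Il6r, Il6st (gp130), Osmr and Lifr, the transcription factor Stat3 and its feedback inhibitor Socs3. All 9 were found, each with 1 probe set, among 14329 genes with a single symbol on the array. They were followed over 12 whole-transcript arrays of laryngeal muscle from male F344 rats, 1 week after surgery under ketamine and xylazine anaesthesia, in 4 groups of 3 arrays. The injured groups came from rats in which the recurrent laryngeal nerve was cut on one side and 1 cm of it taken out, and the control groups from rats operated on by the same route with the nerve left whole, 10 animals for each surgery. The PCA groups are the posterior cricoarytenoid muscle, which opens the vocal folds, and the AC groups the adductor complex, which closes them. The labels give no ages, no side sampled, no pooling of specimens and no link between arrays and animals, so p-values reflect array-to-array spread alone, part of which may be technical.

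Interleukin-6 binds Il6r, and the pair recruits Il6st, the signal receptor that the whole family shares; oncostatin M and leukaemia inhibitory factor instead bind Osmr or Lifr paired with Il6st. Janus kinases on these receptors phosphorylate Stat3, which enters the nucleus and switches on genes that include Socs3, whose product shuts the receptor down. TWEAK acts through Fn14, which feeds the NF-kB pathway; in mice Fn14 is scarce in innervated muscle and is induced by denervation, and interleukin-6 is made by muscle, macrophages and fibroblasts.

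Injury went with higher transcript levels of the receptors Tnfrsf12a, Il6r and Osmr, of Stat3 and of Socs3, and with a lower level of Lifr. In PCA all 6 of these changes passed the test, where 25.8% of all genes did, and in AC those of Tnfrsf12a, Il6r and Lifr did, where 1.91% of all genes did. Il6 itself was dim and varied widely among injured arrays, and passed when both muscles were averaged but in neither alone. The shared receptor Il6st and the ligand Tnfsf12 passed in no comparison. Values are log2 expression, so that a difference of 1 is a doubling, and a gene was called where its Benjamini-Hochberg adjusted p over all 14329 genes was under 0.05 in limma.

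Of the members, 4 (Il6r, Il6st, Osmr, Lifr) lie on rat chromosome 2, 4 (Tnfsf12, Tnfrsf12a, Stat3, Socs3) on chromosome 10, and Il6 on chromosome 4. Osmr and Lifr are next to each other among the protein-coding genes of the RefSeq annotation of GRCr8, although they moved in opposite directions after injury. Tnfsf12 stands next to Tnfsf13, and Stat3 next to Stat5a.

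The 250 bases before the annotated start are shown for this pair of neighbouring receptors, for the TWEAK receptor, which passed in both muscles, and for Il6, the ligand of the family. They are RefSeq sequence of GRCr8, 5′ to 3′ on the gene's strand, at chr2:57688562-57688811 (minus strand) for Osmr, chr2:57963139-57963388 (plus strand) for Lifr, chr10:13213649-13213898 (minus strand) for Tnfrsf12a and chr4:5894576-5894825 (minus strand) for Il6. Capitals mark matches to any of 4 motifs searched on both strands: the STAT motif TTCNNNGAA, the AP-1 motif TGANTCA, the cyclic AMP response element TGACGTCA, and the NF-kB motif.
Osmr: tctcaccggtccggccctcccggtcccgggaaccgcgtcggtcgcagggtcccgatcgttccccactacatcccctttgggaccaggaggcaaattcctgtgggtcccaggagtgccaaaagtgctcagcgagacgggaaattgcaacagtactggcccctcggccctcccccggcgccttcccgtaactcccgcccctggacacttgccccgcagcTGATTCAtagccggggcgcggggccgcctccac
Lifr: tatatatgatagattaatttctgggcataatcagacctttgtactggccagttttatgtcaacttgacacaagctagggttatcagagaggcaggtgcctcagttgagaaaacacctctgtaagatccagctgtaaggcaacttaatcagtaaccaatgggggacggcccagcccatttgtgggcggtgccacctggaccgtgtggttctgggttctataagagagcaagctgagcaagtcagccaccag
Tnfrsf12a: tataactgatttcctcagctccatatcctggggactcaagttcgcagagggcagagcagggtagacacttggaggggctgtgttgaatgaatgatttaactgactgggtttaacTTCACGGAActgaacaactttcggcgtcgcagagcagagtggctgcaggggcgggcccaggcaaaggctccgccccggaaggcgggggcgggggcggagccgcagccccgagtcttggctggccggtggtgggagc
Il6: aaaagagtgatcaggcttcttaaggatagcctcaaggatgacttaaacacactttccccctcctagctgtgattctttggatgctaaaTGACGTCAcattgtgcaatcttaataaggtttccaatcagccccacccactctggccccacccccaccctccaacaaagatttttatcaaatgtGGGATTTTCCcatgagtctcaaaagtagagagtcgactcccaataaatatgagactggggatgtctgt

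The Osmr window held an AP-1 match, TGATTCA, 33 to 27 bases before the start. The Tnfrsf12a window held a STAT match, TTCACGGAA, 136 to 128 bases before the start. In the Il6 window the cyclic AMP response element lay 162 to 155 bases before the start, and the NF-kB match GGGATTTTCC 68 to 59 bases before it. The Socs3 window held an NF-kB match, GGGGTGCCCC, 161 to 152 bases before the start, and those of Lifr, Il6r, Il6st and Stat3 held no match. Among 33469 rat promoter windows of this length, 7.67% held the STAT motif, 6.34% the AP-1 motif, 1.59% the cyclic AMP response element and 6.33% the NF-kB motif. The matches are descriptions of letters in a window, and binding was not measured. Tnfsf12 was not matched in the promoter table.

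Tnfsf12 encodes TWEAK, a cytokine of the tumour necrosis factor superfamily. It lay between 8.73 and 8.84 in PCA injury against 8.41 and 8.88 in PCA control, and between 8.71 and 8.81 in AC injury against 8.58 and 8.74 in AC control. The groups overlapped in both muscles. The difference between injury and control was 0.17 ± 0.11 (SE) in PCA (adjusted p = 0.283) and 0.12 ± 0.11 in AC (adjusted p = 0.577). The highest PCA control array was array 2, at 8.88, and without that array the PCA difference was 0.31 with an adjusted p of 0.0223. That array also had the highest mean of squamous epithelium markers among the PCA controls, 9.87 against 8.31 and 7.22. Within groups Tnfsf12 had an r of 0.78 with this mean. With the mean as a covariate in limma the PCA difference was -0.16 (adjusted p = 0.597). The part of this tissue was not tested.

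Tnfrsf12a encodes Fn14, the receptor for TWEAK. It was at 9.07, 8.77 and 9.10 in the PCA injury arrays, against 8.36, 8.14 and 8.18 in PCA control. In AC it was at 8.80, 8.93 and 9.07 after injury, against 8.18, 7.86 and 8.25 in control. Every injured array of both muscles stood above every control array of both muscles. The rise was 0.75 ± 0.13 in PCA, a 1.69-fold higher level (adjusted p = 0.00191), and 0.84 ± 0.13 in AC, 1.79-fold (adjusted p = 0.0156). In AC, 162 of 14329 genes had a larger difference than Tnfrsf12a, and in PCA 731 did. The AC call was lost without AC injury 2 (adjusted p = 0.0731), AC injury 3 (0.0584) or AC control 2 (0.0740), with differences of 0.84, 0.77 and 0.72.

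**Figure D1:**
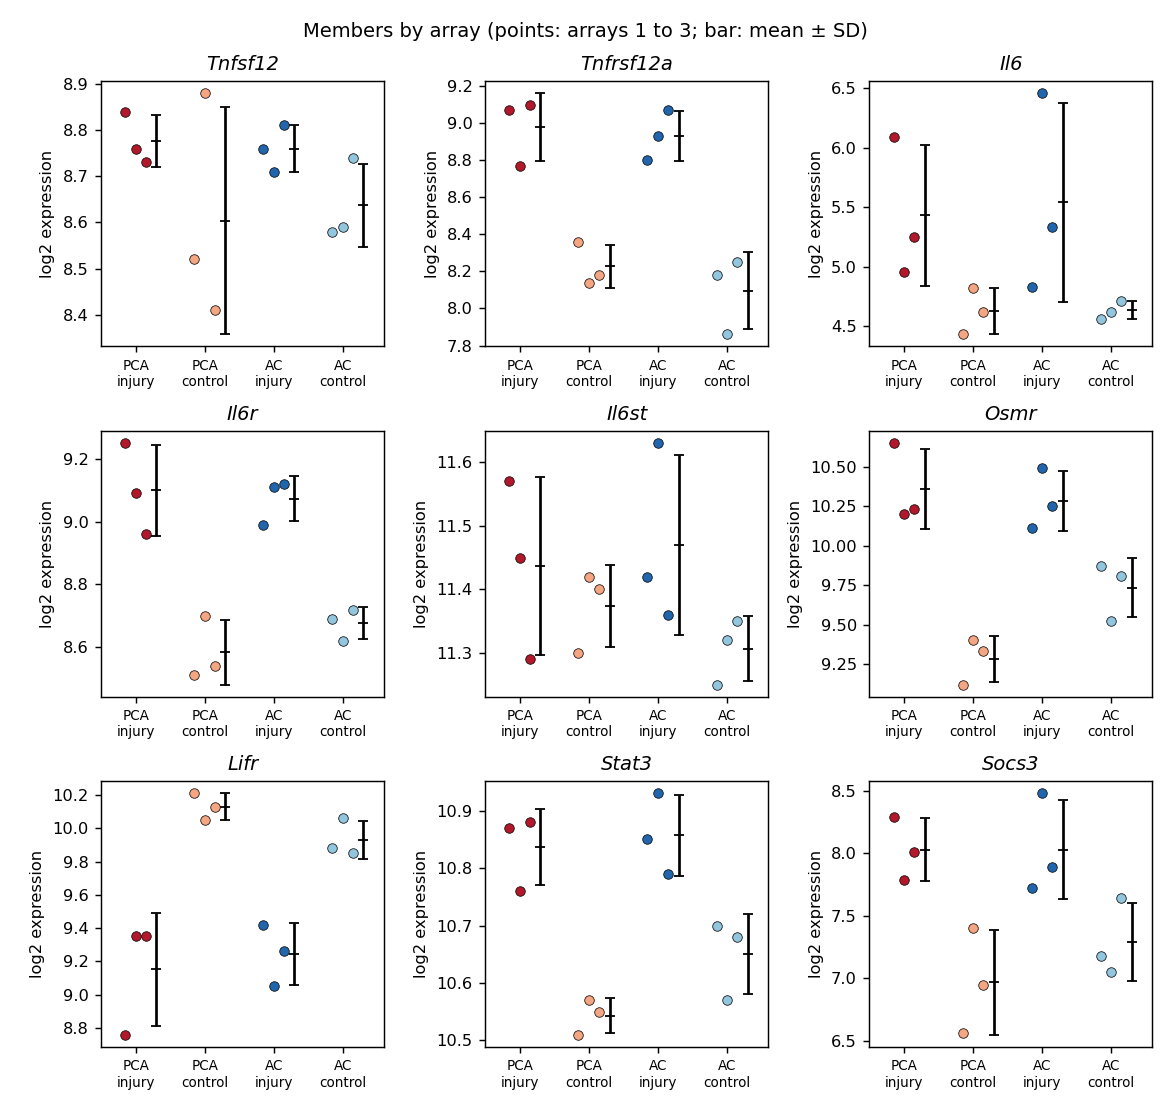
Log2 expression of the 9 members on each array, in panels by gene, with PCA injury (dark red), PCA control (light red), AC injury (dark blue) and AC control (light blue) along the horizontal axis; points are arrays 1 to 3 in order and the bars give the mean ± SD. Axes do not start at 0 and differ between panels. Tnfrsf12a lay at 8.77 and above in the injured arrays and at 8.36 and below in the controls, while Lifr lay at 9.42 and below in the injured arrays and at 9.85 and above in the controls.

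Il6 encodes interleukin-6, the founding ligand of its family. Its probe set was dim, and 19.7% of all probe sets had a lower mean. It was at 6.09, 4.95 and 5.25 in PCA injury, against 4.43, 4.82 and 4.62 in PCA control. In AC it was at 4.83, 6.46 and 5.33 after injury, against 4.56, 4.62 and 4.71 in control. PCA injury 1 and AC injury 2 were the high arrays, and the lowest injured array of each muscle, at 4.95 and 4.83, was only just above the highest control array of that muscle, at 4.82 and 4.71. The injury difference was 0.81 ± 0.37 in PCA (adjusted p = 0.134) and 0.91 ± 0.37 in AC (adjusted p = 0.194), so neither passed; in PCA it passed without AC injury 2, an array of the other muscle (adjusted p = 0.0405). The difference was 0.48 in PCA without PCA injury 1, and 0.45 in AC without AC injury 2. Averaged over both muscles the difference was 0.86 ± 0.26 (adjusted p = 0.0299), and without those 2 arrays together 0.46 (adjusted p = 0.0255). That call was lost without PCA injury 1, PCA control 1, PCA control 3 or any AC control array, each left out alone (adjusted p between 0.0517 and 0.0651), and with the squamous epithelium mean as a covariate (0.96, adjusted p = 0.0891).

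Il6r encodes the receptor that binds interleukin-6 itself. It was at 9.25, 9.09 and 8.96 in PCA injury, against 8.51, 8.70 and 8.54 in PCA control. The AC values were 8.99, 9.11 and 9.12 after injury, against 8.69, 8.62 and 8.72 in control. No injured array of either muscle fell within the range of the controls. The rise was 0.52 ± 0.09 in PCA, 1.43-fold (adjusted p = 0.00206), and 0.40 ± 0.09 in AC, 1.32-fold (adjusted p = 0.0478).

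Osmr encodes the oncostatin M receptor subunit. It was at 10.65, 10.20 and 10.23 in PCA injury, against 9.12, 9.40 and 9.33 in PCA control. In AC it was at 10.11, 10.49 and 10.25 after injury, against 9.87, 9.52 and 9.81 in control. Injured arrays of both muscles stood above the controls of both, and the AC controls stood in turn above the PCA controls. The rise in PCA was 1.08 ± 0.15, 2.11-fold (adjusted p = 0.000694), the largest among the 9 members there. In AC the difference was 0.55 ± 0.15, 1.46-fold (adjusted p = 0.0789), which passed without PCA injury 1 (adjusted p = 0.0380) and with array weights (0.0453).

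Lifr encodes the leukaemia inhibitory factor receptor subunit. It was at 8.76, 9.35 and 9.35 in PCA injury, against 10.21, 10.05 and 10.13 in PCA control. The AC values were 9.42, 9.05 and 9.26 after injury, against 9.88, 10.06 and 9.85 in control. It was the one member whose injured arrays all lay below the controls. It fell by 0.98 ± 0.15 in PCA, to 0.508 of the control level (adjusted p = 0.00134), and by 0.69 ± 0.15 in AC, to 0.621 of the control level (adjusted p = 0.0487). A lower difference was found for 1.5% of genes in PCA and 1.4% in AC.

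The AC calls of Il6r and Lifr were near the threshold. With each array left out in turn, both were called without PCA injury 1, PCA injury 3 or AC injury 1. Il6r had an adjusted p between 0.0524 and 0.181, and Lifr between 0.0543 and 0.187, without each of the other 9 arrays, at AC differences of 0.37 to 0.44 for Il6r and -0.78 to -0.59 for Lifr over all 12.

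Il6st encodes gp130, the receptor that carries the signal for the whole family. It lay between 11.29 and 11.57 in PCA injury against 11.30 and 11.42 in PCA control, and between 11.36 and 11.63 in AC injury against 11.25 and 11.35 in AC control. The groups overlapped in PCA, and in AC the lowest injured array, at 11.36, stood just above the highest control array, at 11.35. The difference was 0.06 ± 0.09 in PCA (95% interval -0.14 to 0.27, adjusted p = 0.676) and 0.16 ± 0.09 in AC (95% interval -0.04 to 0.37, adjusted p = 0.360).

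Stat3 encodes the transcription factor that gp130 activates by phosphorylation, which a transcript level does not report. It was at 10.87, 10.76 and 10.88 in PCA injury, against 10.51, 10.57 and 10.55 in PCA control. In AC it was at 10.85, 10.93 and 10.79 after injury, against 10.70, 10.57 and 10.68 in control. The injured arrays of both muscles lay above the controls by a narrow margin. The rise in PCA was 0.29 ± 0.07, 1.23-fold (adjusted p = 0.0104), and the AC difference was 0.21 ± 0.07 (adjusted p = 0.132).

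Socs3 encodes the inhibitor that Stat3 induces and that blocks gp130 signalling. It was at 8.29, 7.79 and 8.01 in PCA injury, against 6.56, 7.40 and 6.95 in PCA control. The AC values were 7.72, 8.48 and 7.89 after injury, against 7.18, 7.05 and 7.64 in control. The injured arrays lay above the controls, with the highest control of AC, at 7.64, close to the lowest injured array, at 7.72. The rise in PCA was 1.06 ± 0.25, 2.08-fold (adjusted p = 0.0101), and the AC difference was 0.74 ± 0.25, 1.67-fold (adjusted p = 0.133).

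In PCA, 6 of 9 members were called, 5 higher and 1 lower, where 25.8% of all genes were called, 13.3% higher and 12.5% lower. The groups did not overlap for 7 of 9, where 37.0% of all genes did not overlap. In AC, 3 of 9 were called, 2 higher and 1 lower, where 1.91% of all genes were called, 1.15% higher and 0.761% lower. The AC groups did not overlap for 8 of 9, where 28.4% of all genes did not. Over both muscles 7 of 9 were called, 6 higher and 1 lower, where 26.4% of all genes were, 13.4% higher and 13.1% lower. The mean of the squamous epithelium markers of each array, described with the other tissues, was also used as a covariate. No member was then called in PCA (adjusted p between 0.0541 and 0.742). The differences were 1.10 for Osmr, 0.80 for Tnfrsf12a, -1.06 for Lifr, 0.85 for Socs3, 0.44 for Il6r and 0.28 for Stat3. Over all genes, PCA calls fell from 3697 to 402 with this covariate, so the loss of calls was not particular to the members. The squamous means of PCA injury (10.32 to 10.94) all lay above those of PCA control (7.22 to 9.87). In PCA the covariate thus runs with injury, and this fit cannot separate them well. Without the covariate, the median difference of the members was 0.52 in PCA and 0.40 in AC, beside -0.03 and 0.02 over all genes. The members were named with earlier results of these arrays known, so these shares are a description and no test of the set. The count of AC calls ran between 0 and 4 with each array left out: it was 0 without AC injury 2, AC injury 3 or AC control 2, and 1 without PCA injury 2, any PCA control, AC control 1 or AC control 3.

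**Figure D2:**
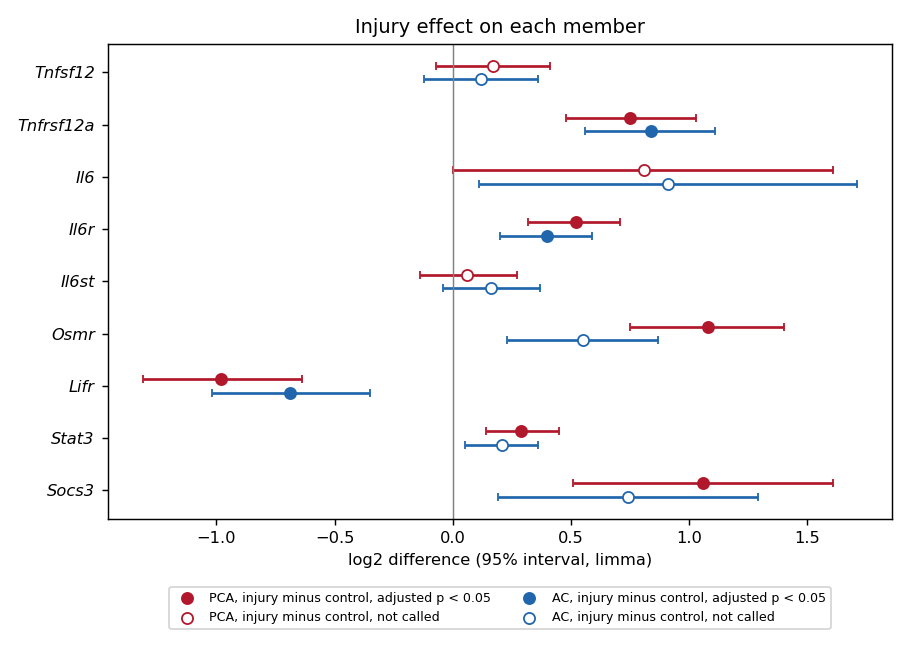
Log2 difference of injury minus control for each member, with 95% intervals from limma, in PCA (red) and AC (blue, drawn below); filled points passed an adjusted p of 0.05. Osmr at 1.08 and Socs3 at 1.06 were highest in PCA, and Lifr stood alone below 0 in both muscles, at -0.98 in PCA and -0.69 in AC.

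The injury effects of the muscles were set against each other as PCA minus AC. None of the 9 members was called, where 0.154% of all genes were, and 1 member, Osmr, had an unadjusted p under 0.05, where 15.7% of all genes did. For Osmr the difference was 0.53 ± 0.21 (95% interval 0.07 to 0.98, unadjusted p = 0.0279, adjusted p = 0.249). For Tnfrsf12a it was -0.08 ± 0.18 (95% interval -0.48 to 0.31), and for Lifr -0.29 ± 0.22 (95% interval -0.76 to 0.18). The interval for Socs3 ran between -0.46 and 1.10 and that for Il6 between -1.24 and 1.03, so sizeable differences between the muscles are not excluded for either gene. A call in PCA without one in AC is therefore not a difference shown between the muscles for any member.

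Between the uninjured muscles none of the members was called, where 10.6% of all genes were, and 1 had an unadjusted p under 0.05, where 26.6% of all genes did. Osmr was lower in PCA control than in AC control by a log2 difference of -0.45 ± 0.15 (unadjusted p = 0.0108, adjusted p = 0.0777), and its groups did not overlap, where 33.7% of all genes did not. Without PCA injury 1 and AC injury 2 together, arrays of neither control group, Osmr passed at the same difference of -0.45 (adjusted p = 0.0348). With each array left out in turn its adjusted p lay between 0.044 and 0.229. With the squamous epithelium mean as a covariate it was 0.687. Calls over all genes between the controls then fell from 1523 to 2. Between the injured muscles none was called, where 0.0% of all genes were, and none of the members had an unadjusted p under 0.05, where 517 genes (3.61%) did. Their arrays overlapped for all 9, where 6.48% of all genes did not overlap. The member differences there ran between -0.11 for Il6 and 0.08 for Osmr. For Tnfrsf12a, Il6, Il6r, Osmr, Stat3 and Socs3 both injured groups ranked above both control groups, with no overlap between the lower injured and the higher control group, and for Lifr the order was turned round. Within the injured pair and within the control pair the arrays of these genes overlapped, apart from Osmr in the controls.

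Within the injured groups Il6, Il6st, Osmr and Socs3 varied together, and Lifr in the opposite direction. PCA injury 1 had the highest Il6, Il6r, Il6st, Osmr and Socs3 and the lowest Lifr of its group, and AC injury 2 the highest Il6, Il6st, Osmr, Stat3 and Socs3 and the lowest Lifr of its group. After subtraction of the group means, Lifr and Osmr had a Pearson r of -0.94 over the 12 arrays (Spearman's rho -0.86). Without the 2 arrays farthest from their group mean in Osmr, AC control 2 and PCA injury 1, r was also -0.94. Il6 and Socs3 had an r of 0.79 (rho 0.84), and Il6 and Lifr -0.85 (rho -0.85). Without the 2 arrays farthest in Il6, AC injury 1 and AC injury 2, these r were 0.69 and -0.90. No r was computed without PCA injury 1 and AC injury 2 together. For Tnfrsf12a the r was 0.24 with Il6 (rho 0.10) and 0.39 with Osmr (rho 0.34), and 0.10 and 0.01 without the 2 arrays farthest in Tnfrsf12a. The r of Tnfrsf12a farthest from 0 was 0.45, with Stat3 (rho 0.36, and r -0.14 without those arrays), and with Lifr it was -0.38 (rho -0.31, and r -0.10 without them). These r are descriptions over arrays that share group, muscle and normalisation.

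**Figure D3:**
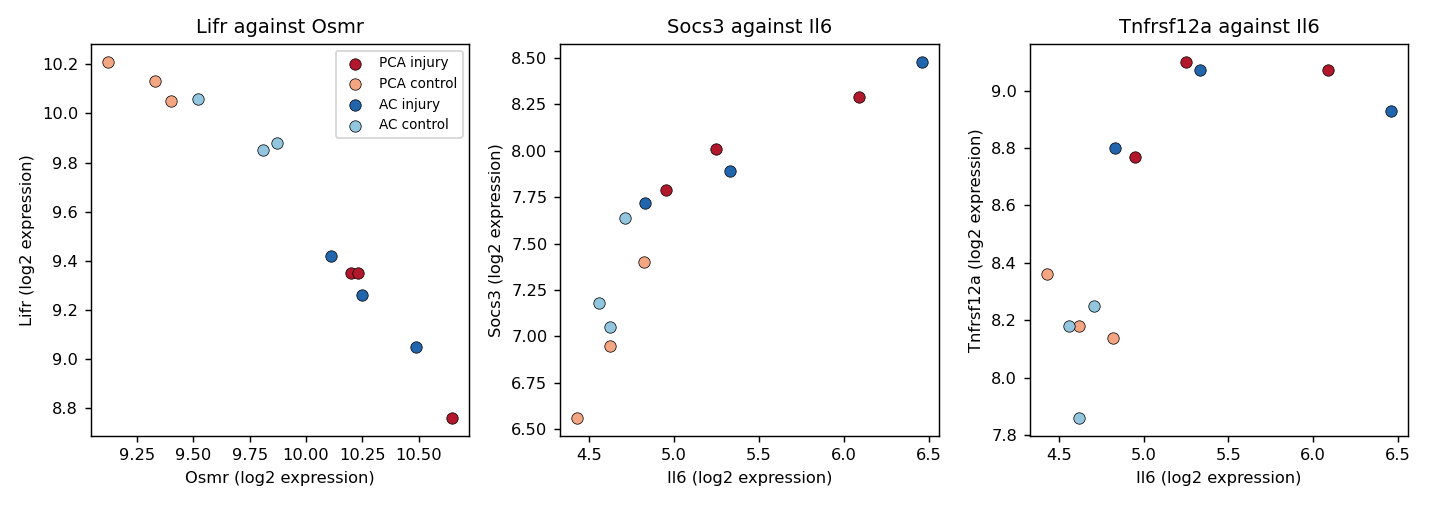
Pairs of members on the 12 arrays, in log2 expression on both axes: Lifr against Osmr, Socs3 against Il6 and Tnfrsf12a against Il6, coloured by group. Lifr falls along Osmr within the groups (r of deviations from group means -0.94). Tnfrsf12a separates injured arrays, at 8.77 and above, from controls. Its r with Il6 is 0.72 over the plotted values and 0.24 for deviations from group means.

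With PCA injury 1 and AC injury 2 left out together, the 6 calls in PCA held, at 0.93 for Osmr, -0.78 for Lifr, 0.93 for Socs3, 0.71 for Tnfrsf12a, 0.44 for Il6r and 0.28 for Stat3. In AC, Lifr held at -0.59 (adjusted p = 0.0474), and Tnfrsf12a, at 0.84, and Il6r, at 0.38, did not pass (adjusted p = 0.0632 and 0.104).

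The genes whose log2 values followed each member most closely over the 12 arrays were named by Pearson's r, which reflects the group differences as well as the spread within groups. For Tnfrsf12a they were Tm6sf1 (r = 0.970), Fkbp1a (0.963) and Armcx2 (0.961). For Il6 they were Tfpi2, a protease inhibitor (0.965), Inhba, a subunit of activin A (0.954), and Il1b, the cytokine interleukin-1 beta (0.947), and Il1b kept an r of 0.98 within groups. Il6r was followed by Grn (0.988), Mpeg1, a perforin-like gene of macrophages (0.987), and Inpp5d, a phosphatase of blood cells (0.984). Osmr was followed by Nfkbie, an inhibitor of NF-kB (0.987), Ncf4, a part of the phagocyte oxidase (0.987), and Ifi30 (0.983). Lifr was followed by Rab3a (0.986), Egf, epidermal growth factor (0.981), and Thrb, a thyroid hormone receptor (0.978). Socs3 was followed by Tspan4 (0.969), Igf1 (0.966) and Timp1, an inhibitor of metalloproteinases (0.961). Osmr was itself the closest gene to Stat3 (0.956), ahead of Tubb6 and Lta4h (0.955 each). Glis2 (0.902) and Gsdmdl1 (0.932) were closest to Tnfsf12 and Il6st.

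Among the other ligands of the interleukin-6 family, Ebi3 was the exception. Of 9 measured ligands, Ebi3, a subunit of heterodimeric interleukins, was the one called, in both muscles, where 25.8% of all genes were called in PCA and 1.91% in AC. It was at 8.34, 8.27 and 8.23 in PCA injury, against 6.78, 6.88 and 6.91 in PCA control, and at 7.71, 7.87 and 8.40 in AC injury, against 7.17, 7.14 and 7.24 in AC control. The groups were apart in both muscles, by 1.42 ± 0.14 in PCA (adjusted p = 0.000207) and 0.81 ± 0.14 in AC (adjusted p = 0.0241). The median over the 9 ligands was 0.05 in PCA and 0.03 in AC. The ligands of the moving receptors did not pass: Osm differed by 0.14 ± 0.14 in PCA and 0.17 ± 0.14 in AC, and Lif by 0.19 ± 0.10 and 0.18 ± 0.10. Cntf, the ciliary neurotrophic factor made by Schwann cells, differed by -0.33 ± 0.12 in PCA (adjusted p = 0.0767).

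Of 7 measured receptors of the family, 2 rose (Osmr, Il6r) and 2 fell (Lifr, Il11ra1) in PCA, and 1 rose (Il6r) and 1 fell (Lifr) in AC, where 13.3% of all genes rose and 12.5% fell in PCA, and 1.15% rose and 0.761% fell in AC. Il11ra1, the interleukin-11 receptor, fell by 0.42 ± 0.10 in PCA (adjusted p = 0.010). Cntfr, which binds ciliary neurotrophic factor together with Lifr and Il6st, differed by -0.71 ± 0.27 in PCA and -0.74 ± 0.27 in AC and passed in neither (adjusted p = 0.0785 and 0.157). The median over the 7 receptors was -0.16 in PCA and -0.10 in AC.

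Of 9 measured Janus kinases and STAT factors, 4 rose and 1 fell in PCA, and in AC none was called in limma, with 3 at an unadjusted p under 0.05. Of all genes, 13.3% rose and 12.5% fell in PCA and 1.91% were called in AC. The share of all genes at an unadjusted p under 0.05 was not computed for injury, so such counts have no background here. Besides Stat3, the kinase Jak2 rose by 0.69 ± 0.15 (adjusted p = 0.00693), the kinase Jak3 of blood cells by 0.57 ± 0.15 (adjusted p = 0.0173) and Stat6, the factor of interleukin-4 signalling, by 0.44 ± 0.09 (adjusted p = 0.00533). Stat5b, the factor of growth hormone signalling, fell by 0.37 ± 0.12 (adjusted p = 0.0359). The kinases differed by 0.60 ± 0.15 for Jak2 (adjusted p = 0.0656) and 0.59 ± 0.15 for Jak3 (adjusted p = 0.0698) in AC. Of 15 measured inhibitors of the cascade, 3 rose and 2 fell in PCA, and in AC none was called and 4 had an unadjusted p under 0.05. With 25.8% of all genes called in PCA and 1.91% in AC, these counts of calls show nothing particular to the inhibitors. Beside the rise of Socs3, Socs2, the suppressor that acts on growth hormone signalling, fell by 0.72 ± 0.11 (adjusted p = 0.00146), and the phosphatase gene Ptpn6 rose by 0.66 ± 0.13 (adjusted p = 0.00354).

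Of 27 measured genes listed as targets of Stat3, 11 rose and 1 fell in PCA, and 2 rose in AC, where 13.3% of all genes rose and 12.5% fell in PCA and 1.15% rose in AC. A2m, an acute-phase protease inhibitor of the rat, rose by 1.85 ± 0.24 in PCA (adjusted p = 0.000589) and by 1.32 ± 0.24 in AC (adjusted p = 0.0291). Timp1 rose by 1.76 ± 0.24 in PCA (adjusted p = 0.00067) and by 1.23 ± 0.24 in AC (adjusted p = 0.0354). Junb, a subunit of AP-1, rose by 1.08 ± 0.13 in PCA (adjusted p = 0.000394) and the kinase Pim1 by 0.92 ± 0.16 (adjusted p = 0.00255), with differences of 0.34 ± 0.13 and -0.11 ± 0.16 in AC that did not pass. Serpina3n, an acute-phase serpin, fell by 1.54 ± 0.32 in PCA (adjusted p = 0.00528) and differed by 0.20 ± 0.32 in AC. The test of PCA minus AC passed for none of the 27 in limma, where 0.154% of all genes passed. An unadjusted p under 0.05 was found for 6 of them, where 15.7% of all genes had one. The adjusted p was 0.0698 for Pim1, 0.0856 for Junb and 0.0919 for Serpina3n. The median over the list was 0.28 in PCA and 0.15 in AC. Many of these genes answer to other signals as well, and the list holds Socs3 and Jak3, counted above.

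Of 21 measured genes of the TWEAK and NF-kB relay, 3 rose and 2 fell in PCA, and in AC Tnfrsf12a was the one called. The PCA count is at the level of all genes, of which 25.8% were called there (1.91% in AC), and shows nothing particular to the relay. Nfkbie rose by 0.87 ± 0.14 (adjusted p = 0.00135) and Nfkb2, the subunit of the non-canonical pathway, by 0.32 ± 0.08 (adjusted p = 0.0166), while Tab1 fell by 0.29 ± 0.08 (adjusted p = 0.0214) and Nfkbia, an inhibitor of NF-kB, by 0.38 ± 0.13 (adjusted p = 0.0484). The median over the list was 0.05 in PCA and -0.02 in AC. Tnfrsf12a was also the one called in AC among 20 measured receptors of the tumour necrosis factor superfamily. In PCA 6 of these rose and 1 fell, where 13.3% of all genes rose and 12.5% fell, among them the tumour necrosis factor receptors Tnfrsf1b, higher by 1.12 ± 0.19 (adjusted p = 0.00204), and Tnfrsf1a, by 0.70 ± 0.09 (adjusted p = 0.000469), Cd40 by 0.62 ± 0.11 (adjusted p = 0.00253), and Tnfrsf11b, the decoy receptor osteoprotegerin, which fell by 1.02 ± 0.19 (adjusted p = 0.00286). None of 13 measured ligands of that superfamily was called in limma in either muscle, with 5 in PCA and 1 in AC at an unadjusted p under 0.05. For these 2 counts the share of all genes was not computed.

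**Figure D4:**
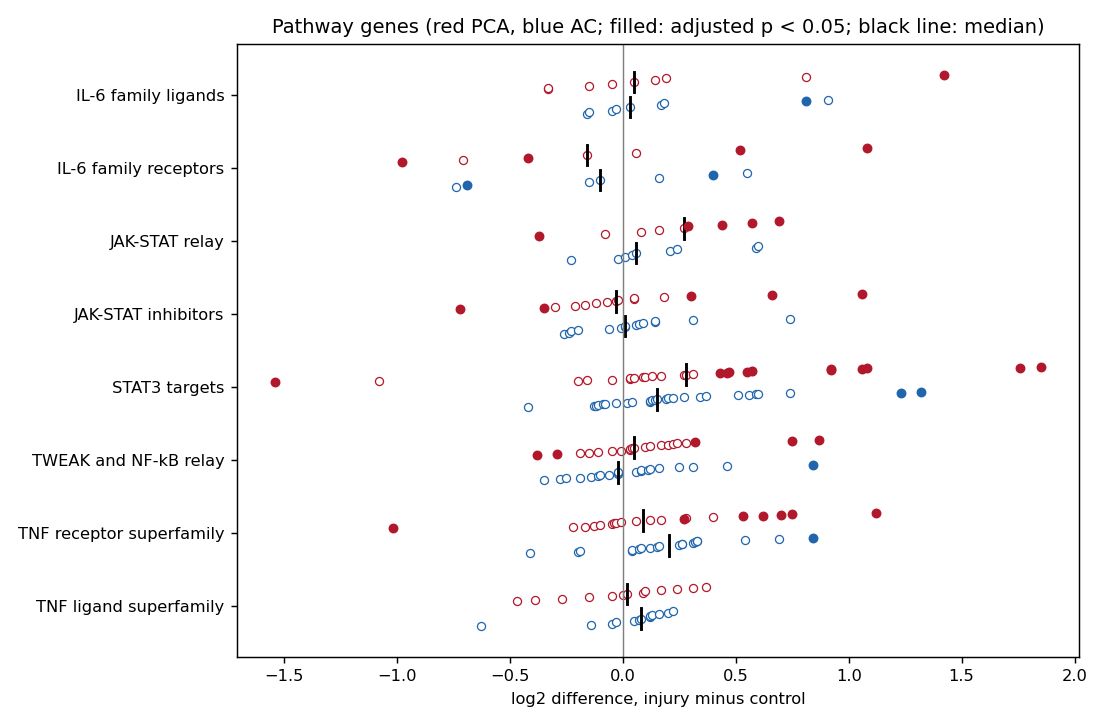
Log2 difference of injury minus control for the measured genes of 8 pathway lists, PCA in red above AC in blue, with filled points for an adjusted p under 0.05 and a black line at the list's median. The medians lie between -0.16 and 0.28 in PCA and between -0.10 and 0.20 in AC, and the highest filled points are A2m at 1.85 in PCA and 1.32 in AC.

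The specimens are whole muscle, in which fewer cells of a type and less RNA per cell cannot be told apart. The counts of calls below stand beside 13.3% of all genes risen and 12.5% fallen in PCA, and 1.15% risen and 0.761% fallen in AC. For the counts at an unadjusted p under 0.05 the share of all genes was not computed, so they have no background. Muscle fibre markers had a mean between 12.02 and 13.01 per array, with 6 of 12 measured fallen in PCA and none called in AC (1 at an unadjusted p under 0.05), and 10 of 11 measured genes of denervated muscle rose in each muscle, among them Chrna1, the acetylcholine receptor subunit, by 1.96 ± 0.37 in PCA and 2.84 ± 0.37 in AC. Markers of other cells also differed between injury and control. Of 15 measured macrophage markers 14 rose in PCA and 4 in AC, and their mean was 10.02 to 10.45 in PCA injury against 8.11 to 8.91 in PCA control, and 9.82 to 10.25 in AC injury against 9.14 to 9.43 in AC control. Of 12 measured fibroblast markers 9 rose in PCA and 1 in AC, with means of 11.13 to 11.46 in PCA injury against 10.10 to 10.54 in PCA control, and 11.01 to 11.44 in AC injury against 10.43 to 10.97 in AC control. Schwann cell markers went the other way in their mean, 7.84 to 7.96 in PCA injury against 8.22 to 8.25 in PCA control and 7.81 to 8.02 in AC injury against 8.14 to 8.25 in AC control, with 2 of 7 fallen in PCA and none called in AC, where 5 had an unadjusted p under 0.05.

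Within groups, the r with the macrophage mean was 0.83 for Il6r, 0.77 for Socs3, 0.73 for Tnfsf12, 0.65 for Osmr, 0.53 for Il6, 0.46 for Il6st, 0.23 for Stat3, 0.11 for Tnfrsf12a and -0.64 for Lifr. The r with the fibroblast mean was close to these for most members, at 0.79 for Il6r, 0.77 for Socs3, 0.63 for Tnfsf12, 0.64 for Osmr, 0.49 for Il6, 0.47 for Il6st, 0.24 for Stat3, 0.34 for Tnfrsf12a and -0.63 for Lifr. Il6 ran opposite to the Schwann cell mean, with an r of -0.89. That r was -0.74 for Il6st, -0.65 for Socs3, -0.56 for Osmr, -0.43 for Stat3, -0.39 for Il6r, -0.25 for Tnfrsf12a, -0.02 for Tnfsf12 and 0.68 for Lifr. With the muscle fibre mean it was -0.79 for Il6st, -0.64 for Il6r, -0.58 for Il6, -0.49 for Osmr, -0.26 for Socs3, -0.04 for Tnfsf12, 0.06 for Stat3, 0.09 for Tnfrsf12a and 0.69 for Lifr. Tnfrsf12a, whose values separated the groups by nerve injury, had an r of 0.07 with the denervated muscle mean within groups. Over the 12 arrays, where the group differences enter, that r was 0.90. The part of these cell types in the results was not tested.

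**Figure D5:**
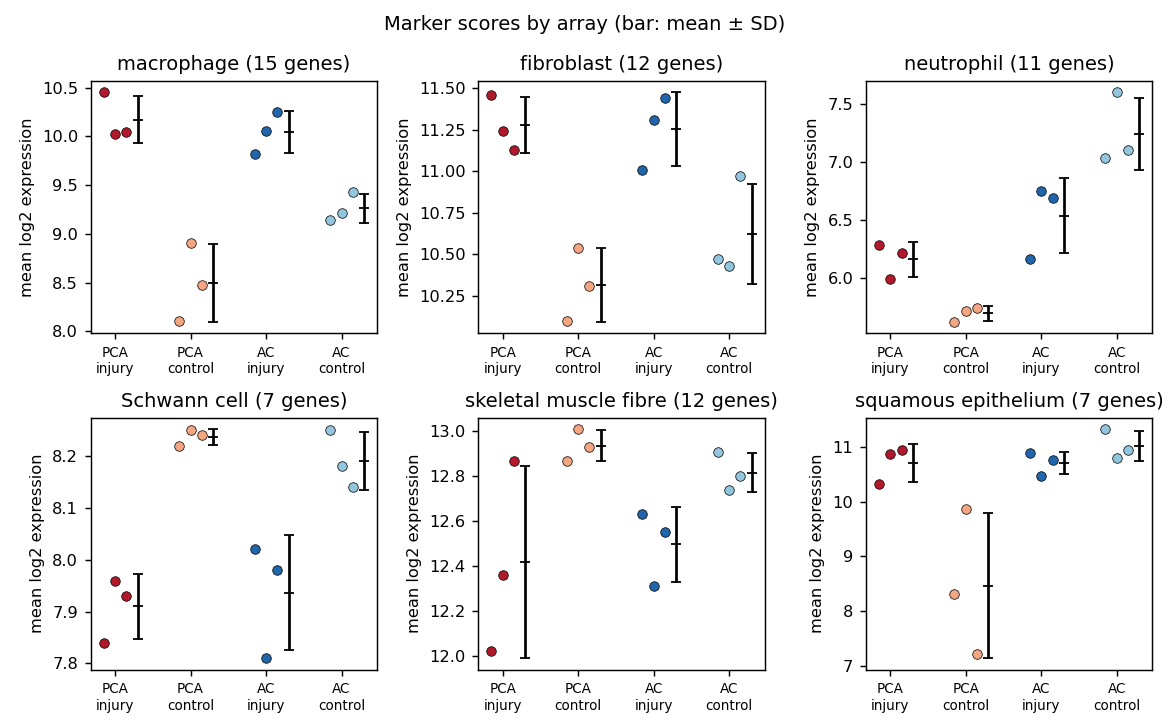
Mean log2 expression of marker genes of 6 cell types on each array, by group as in the plot of the members, with bars for mean ± SD; axes do not start at 0. Macrophage means were 9.82 and above in the injured arrays and 9.43 and below in the controls, and squamous epithelium means were lowest and most spread in PCA control, at 7.22 to 9.87.

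Other tissue also differed between specimens. Here too, 13.3% of all genes rose and 12.5% fell in PCA, and 1.15% rose and 0.761% fell in AC. Again no share of all genes was computed for the counts at an unadjusted p under 0.05. Squamous epithelium markers had means of 10.32 to 10.94 in PCA injury against 7.22 to 9.87 in PCA control, with 6 of 7 measured risen, and 10.48 to 10.89 in AC injury against 10.80 to 11.33 in AC control, with none called and none at an unadjusted p under 0.05. In PCA 9 of 10 adipocyte and 8 of 9 cartilage markers fell, and in AC none of either list was called (0 and 1 at an unadjusted p under 0.05). Neutrophil markers rose for 2 of 11 in PCA, which is near the share of all genes, and fell for 4 in AC. Airway epithelium had 1 of 7 risen and 2 fallen in PCA and none called in AC (3 at an unadjusted p under 0.05), and the 7 endothelial and 13 thyroid and parathyroid markers held none called in PCA (0 and 0 at an unadjusted p under 0.05) or AC (4 and 1). Thyroid and parathyroid transcripts were high on 3 arrays, PCA control 1 (10.01), PCA injury 2 (9.70) and AC injury 2 (8.49), against 6.20 to 7.22 elsewhere. Without those 3 arrays no member was called in AC, with an adjusted p of 0.0706 for Tnfrsf12a at 0.84, and Il6 passed in PCA at 0.95 (adjusted p = 0.0406). The part of these tissues in the results was not tested.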

How the data were processed

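Total RNA from 12 specimens of rat laryngeal muscle was hybridised to whole-transcript arrays, per the labels' protocols, although the molecule label names polyadenylated RNA. The authors deposited 1 log2 value per probe set and array; per the submitters' processing notes Partek and RMA were used (no version or role is stated), and the log base was taken as 2 from the range of 2.57 to 14.04. Array medians lay between 7.11 and 7.17. Quantile normalisation in RMA makes changes relative to the other genes. Settings for background correction and probe filters: not given in the sources used here. The number of arrays limits the precision.

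Of 27342 probe sets, 15103 had a single symbol in the platform annotation, 317 several and 11922 none, and 15067 were matched to RefSeq by gene identifier, with 0 symbols changed. The probe set with the highest mean stood for each of 500 genes with several, giving 14329 genes. No coordinates of probe sets are given, since their build is not stated. A limma model (version 3.58.1, R 4.3.3) with 4 group means was fitted over all 12 arrays, with 8 residual and 3.14 prior degrees of freedom; each two-sided p was adjusted by Benjamini-Hochberg over the 14329 genes and called under 0.05. Groups and replicate numbers come from the titles. Deviations from group means of arrays of the same number had an r between -0.393 and 0.339 over all genes (4 of 12 pairs over 0.1). This lay within the range for arrays of different numbers, -0.618 to 0.655, and arrays were not paired. The check cannot tell whether arrays share animals.

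Members and lists were chosen with earlier results of these data known. Named are the members, any gene of a pathway list with 12 or fewer measured genes, the 5 with the smallest p per injury contrast of a longer list, and the 3 genes most correlated with each member, with up to 3 markers per cell list; Serpina3n and Tnfrsf11b came in through the difference of the injury effects. Marker means are mean log2 values per array. Motifs were searched by string matching in the RefSeq promoter table. On simulated data with 200 of 14329 genes changed, the fit recovered 61.2%, 95.5% and 98.5% at 1.5-, 2- and 4-fold for injury in PCA, 70.1%, 85.1% and 98.5% in AC, and 37.3%, 76.1% and 95.5% for PCA minus AC. The arrays themselves had 3697 genes called in PCA and 274 in AC, which moves the adjusted threshold. These rates therefore do not compare the power of the real fits in PCA and AC. Alternatives covered probe set choice, a filter on dim genes, normalisation, prior, array weights, a replicate block, the groups fitted, threshold, thyroid-rich arrays, a squamous covariate and each array left out; leaving out PCA injury 1 and AC injury 2 together was added after seeing the data. Plots were made in Python 3.11.15 (matplotlib 3.10.9).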

Additional observations from a re-analysis of the deposited data

How the results depend on the processing

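The 6 calls in PCA held with each array left out (6 to 7 members called), and no member was called there with the squamous epithelium mean as a covariate (0); at an adjusted p under 0.01 they became 4, without Stat3 (0.0104) and Socs3 (0.0101). In AC the 3 calls became 1 under the replicate block, 0 at an adjusted p under 0.01, 0 without the 3 thyroid-rich arrays, 1 with the squamous covariate, 1 without PCA injury 1 and AC injury 2 together, and 0 to 4 with each array left out. Between the controls 0 became 1 with array weights, 1 without that pair of arrays, and 0 to 1 with each array left out, the member being Osmr. The block by replicate number, which the arrays do not bear out as a pairing, left Tnfrsf12a called in AC, with adjusted p of 0.105 for Il6r and 0.106 for Lifr, and Il6 at 0.0529 in the average. The Il6 call in the average was also lost without PCA injury 1, PCA control 1, PCA control 3 or any AC control (0.0517 to 0.0651), with the squamous covariate (0.0891), and at an adjusted p under 0.01. Centring on the median (adjusted p = 0.0547) and quantile normalisation again (0.0551) lost Il6r in AC; these scalings moved the median of all genes by at most 0.036. The filter on dim genes removed Il6. Signs turned for small differences. Tnfsf12 in PCA was -0.16 with the squamous covariate, and Il6st in PCA -0.003 without the pair (-0.003 to 0.14 with each array left out). For PCA minus AC, Il6 was 0.002 after quantile normalisation again, 0.50 without the thyroid-rich arrays, 0.18 with the covariate, 0.027 without the pair and -0.46 to 0.36 with each array left out; Tnfsf12 was -0.008 without the thyroid-rich arrays, -0.33 with the covariate, -0.007 without the pair and -0.047 to 0.19 with each left out; Tnfrsf12a was 0.087 without the thyroid-rich arrays and -0.16 to 0.035 with each left out. Between the injured muscles Il6 was 0.59 without the thyroid-rich arrays, 0.020 without the pair and -0.47 to 0.35 with each left out, and Osmr -0.068 to 0.18. Over all genes, calls in AC numbered 274, against 10 without the thyroid-rich arrays, 703 with array weights, 13 without AC injury 2 and 663 without PCA injury 1. In PCA they numbered 3697, against 402 with the squamous covariate, and between the controls 1523, against 2 with it and 2626 with array weights. For PCA minus AC they numbered 22, against 0 under the block and 406 without PCA control 2. Of 937 member values under alternatives, 853 kept direction and side of the threshold. Some settings could not move a difference, such as the probe set choice, since each member had 1 probe set. The AC calls were kept in 18 of 24 alternatives for Tnfrsf12a, 11 of 24 for Lifr and 8 of 24 for Il6r. The causes were not tested.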
